A study of Homo sapiens with 12 samples.

Results

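HL-60 is an established human myeloid leukaemia cell line, and palbociclib is a small-molecule inhibitor of the cyclin-dependent kinases CDK4 and CDK6. The comparison described here set 3 libraries of HL-60 cells given 500 nM palbociclib for 3 h against 3 libraries of untreated HL-60 cells, among 12 poly(A) RNA libraries in all. The other 6 libraries, from cells given 100 nM ATRA (all-trans retinoic acid) alone or 100 nM ATRA together with 500 nM palbociclib for 3 h, entered the estimate of the spread and are used at the end for another palbociclib comparison. All 12 libraries came from this 1 line, whose genotype is labelled wild type, and the control cells were untreated, with no vehicle library among the 12. Of 58233 genes listed, 7820 had at least 5 RPKM (read density scaled by gene length and by library depth) in at least 3 of the 12 libraries, and these 7820 were the genes compared.

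CDK4 and CDK6, bound to D-type cyclins, phosphorylate the retinoblastoma protein RB1 and its relatives in G1 phase. In its unphosphorylated form RB1 binds E2F transcription factors and represses their target genes, which encode cyclin E, the replication origin machinery, DNA polymerases, nucleotide synthesis enzymes and E2F1 itself. Genes for mitosis are activated later in the cycle by MuvB complexes with B-MYB and FOXM1, through promoter elements that differ from those bound by E2F.

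The values were whole numbers of RPKM with no read counts, so the depth behind each value is unknown, and small levels are coarse: 13 of the genes called lower and 12 of those called higher below had the same value in all 3 libraries of both groups. The sums of RPKM over all genes were between 358455 and 390247 in the 12 libraries. The myeloid identity of the cells was visible in MPO, LYZ, PRTN3 and SPI1, while 13 of 14 markers of erythroid, lymphoid, epithelial, megakaryocytic, fibroblast and endothelial cells did not reach the minimum level. The summed level of the 14 was 2 RPKM in each untreated library and 2, 2 and 3 RPKM in the palbociclib libraries, all of it from PECAM1, the marker that reached the minimum. The other 13, among them the globin genes, CD3D, EPCAM and COL1A1, were listed at 0 in all 6. An exact 0 is weak evidence in this table, because NDUFV2 and GABARAP, which most cells use, were also listed at 0 in all 12 libraries. ELANE, one of the 8 myeloid markers examined, was listed at 0 in the untreated libraries, and the summed level of the 8 was 2470, 2701 and 2942 RPKM in untreated libraries against 2674, 2808 and 3227 RPKM with palbociclib. Among the 6 libraries compared, palbociclib replicate 1 stood apart. Relative to the untreated mean its 1949 shortest genes lay 0.18 higher and its 1948 longest genes 0.164 lower on the log2 scale. These are medians, of 7795 genes with an annotated length, and those of the other 5 compared libraries lay within 0.0466 of 0. The length pattern was not measured in the ATRA and combination libraries, so whether they shared it was not tested. Their replicates 1 had sums of 386651 and 387005 RPKM, beside 390247 RPKM for palbociclib replicate 1. Values without palbociclib replicate 1 are given beside the lists whose calls changed most without it.

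Within 3 h palbociclib lowered more genes than it raised, and the decreases were the larger changes. At an adjusted p-value under 0.05 (limma, Benjamini-Hochberg over all 7820 genes), 247 genes were lower, 3.16% of those tested, and 71 were higher, 0.908% of those tested. At the stricter level of 0.001, 38 genes were lower (0.486%) and 1 was higher (0.0128%). The median change among the 247 was -0.51 on the log2(RPKM + 0.1) scale and the most extreme was -1.84. Among the 71 the median was 0.38 and the most extreme 1.05. In all of these 247 and 71 genes the 3 palbociclib values lay wholly below or wholly above the 3 untreated values, against 9.48% of all genes tested wholly below and 5.74% wholly above. The genes were called on these same values, so this separation is a description and adds no support to the calls. The minimum level was applied to these same values. Within the 6 compared libraries some low genes of both sets met it only with the group where they were higher counted, and some are named below. The words fell and rose are used for genes past 0.05.

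**Figure D1:**
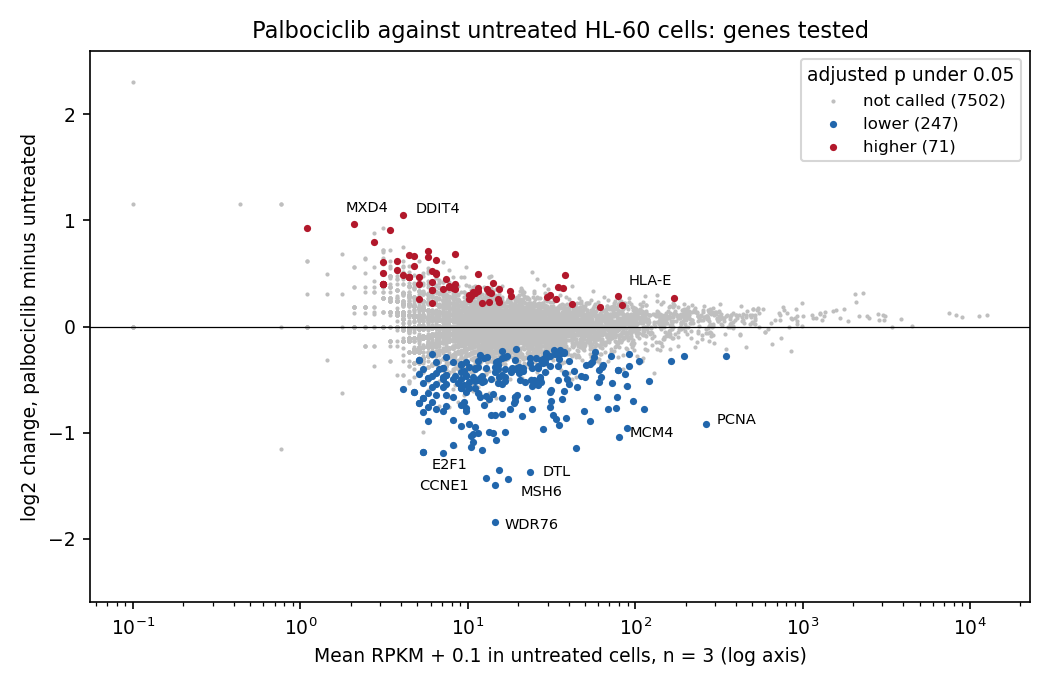
Each point is a gene, with its mean RPKM + 0.1 in the 3 untreated libraries on a log axis against its log2 change with palbociclib; blue points are the 247 genes that fell, red points the 71 that rose and grey points the genes not called, with 1 uncalled gene outside the plotted range. The decreases reach -1.84 (WDR76) and include genes from low levels to PCNA, and the largest increases among the red points are in genes of low level.

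These counts depended on the libraries and on the scaling. Without palbociclib replicate 1, 165 genes were lower and 37 higher, and 156 and 30 of those were among the 247 and the 71. Lower genes numbered 143, 141 and 155 without untreated replicates 1, 2 and 3, and 180 and 158 without palbociclib replicates 2 and 3. Higher genes numbered 30, 42 and 45 without untreated replicates 1, 2 and 3, and 32 and 30 without palbociclib replicates 2 and 3. Of the 247, 122 were called with each of the 6 libraries left out in turn, and of the 71, 17 were. The count at 0.001 fell to between 0 and 10 lower genes when any of the 6 libraries was left out. The share of calls that were lower was 77.7%, and it became 51.0% (101 lower, 97 higher) when libraries were scaled to one median of the tested genes, which shifted the median gene by 0.08. That median was 12 or 13 RPKM in every library, so this scaling moves in coarse steps, and scaling by a trimmed mean gave 75.8%.

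Many of the genes that fell act in DNA replication, DNA repair and the G1 to S transition, and these are described first. In 9 lists of such genes, which also took in mitosis, 88 of 210 genes tested fell and 1 rose, with 64 to 84 lower when 1 of the 6 libraries was left out. Over all genes tested 3.16% fell and 0.908% rose, the shares that stand beside the counts of each list below. The 9 lists held 27 of the 38 genes lower at 0.001.

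Among the transcription factors downstream of CDK4 and CDK6, E2F1, an activator of S phase genes, stood at 14, 12 and 12 RPKM in untreated cells and 5, 5 and 4 RPKM with palbociclib. All 3 treated libraries lay below the untreated ones, a change of -1.42 ± 0.13 (log2, standard error) with an adjusted p of 0.00029. Of 14 E2F, pocket and MuvB genes tested, 6 fell and none rose, with a median change of -0.31 against 0.00 for all genes tested. Without palbociclib replicate 1, 2 of the 14 fell. RBL1, which encodes the pocket protein p107, went from 12, 11 and 11 RPKM to 5, 7 and 5 RPKM, and E2F8, an atypical repressor, from 7, 8 and 7 RPKM to 4, 5 and 4 RPKM. E2F3, the E2F partner TFDP1 and the RB-binding chaperone RBBP4 fell by 0.28, 0.32 and 0.27 on the log2 scale. E2F1 was the only 1 of the 6 called with each library left out. RBL1 lost its call without untreated replicate 1, E2F8, E2F3 and RBBP4 when any library other than palbociclib replicate 2 was left out, and TFDP1 when any of the 6 was left out. The repressor E2F4 (51.3 and 51.7 RPKM, untreated and palbociclib means) and RBL2 (12.3 and 12.7 RPKM) had changes of 0.01 and 0.03, while RB1 itself was at 22.3 and 17.7 RPKM, with an adjusted p of 0.38. E2F7 and E2F2 were below the minimum level for testing, at 5, 5 and 4 RPKM against 2, 2 and 2 RPKM, and at 2, 2 and 2 RPKM against 1, 1 and 1 RPKM.

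Cyclin E, the partner of CDK2 at the entry to S phase, showed one of the largest decreases. CCNE1 stood at 15, 13 and 15 RPKM in untreated cells and at 5 RPKM in all 3 palbociclib libraries, a change of -1.50 ± 0.10 with an adjusted p of 7.4e-05. CCNE2 was too low for testing, at 3 RPKM in all untreated libraries and listed at 0 in all 3 with palbociclib. CDC25A, the phosphatase that activates CDK2, went from 36, 35 and 34 RPKM to 18, 19 and 18 RPKM with no overlap (-0.93 ± 0.06, adjusted p 7.4e-05). Of 25 cyclin, CDK and CDK inhibitor genes tested, 9 fell and 1 rose, with a median of -0.11. That median was -0.07 without palbociclib replicate 1, where 7 fell and none rose, and -0.03 under scaling to one median, where 6 fell and none rose. The others that fell were CDK2 itself (-0.66), the inhibitory kinase WEE1 (-0.67), the ubiquitin ligase components SKP2 (-0.57) and FBXO5 (-0.77, an inhibitor of the anaphase-promoting complex), CCNA2 (-0.41), CDK1 (-0.37) and the CDK4/6 inhibitor gene CDKN2C (-0.61). CDKN2C lost its call when any library other than untreated replicate 1 was left out, and CDK1 when any other than palbociclib replicate 2 was. The target kinases and their partners did not pass the test: CDK4 stood at 54.3 and 47.3 RPKM (adjusted p 0.14), CDK6 at 8.0 and 7.7 RPKM, CCND3 at 23.3 and 23.7 RPKM and CCND2 at 6.0 and 7.3 RPKM. The mitotic cyclin CCNB1 was at 48.7 and 48.3 RPKM and the inhibitor CDKN1B at 11.3 RPKM in both. The gene that rose was CDK9, a kinase of transcription elongation, from 13, 15 and 13 RPKM to 18, 17 and 16 RPKM (0.31 ± 0.07). Its adjusted p was 0.041, and the call was lost when any library other than untreated replicate 2 was left out.

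**Figure D2:**
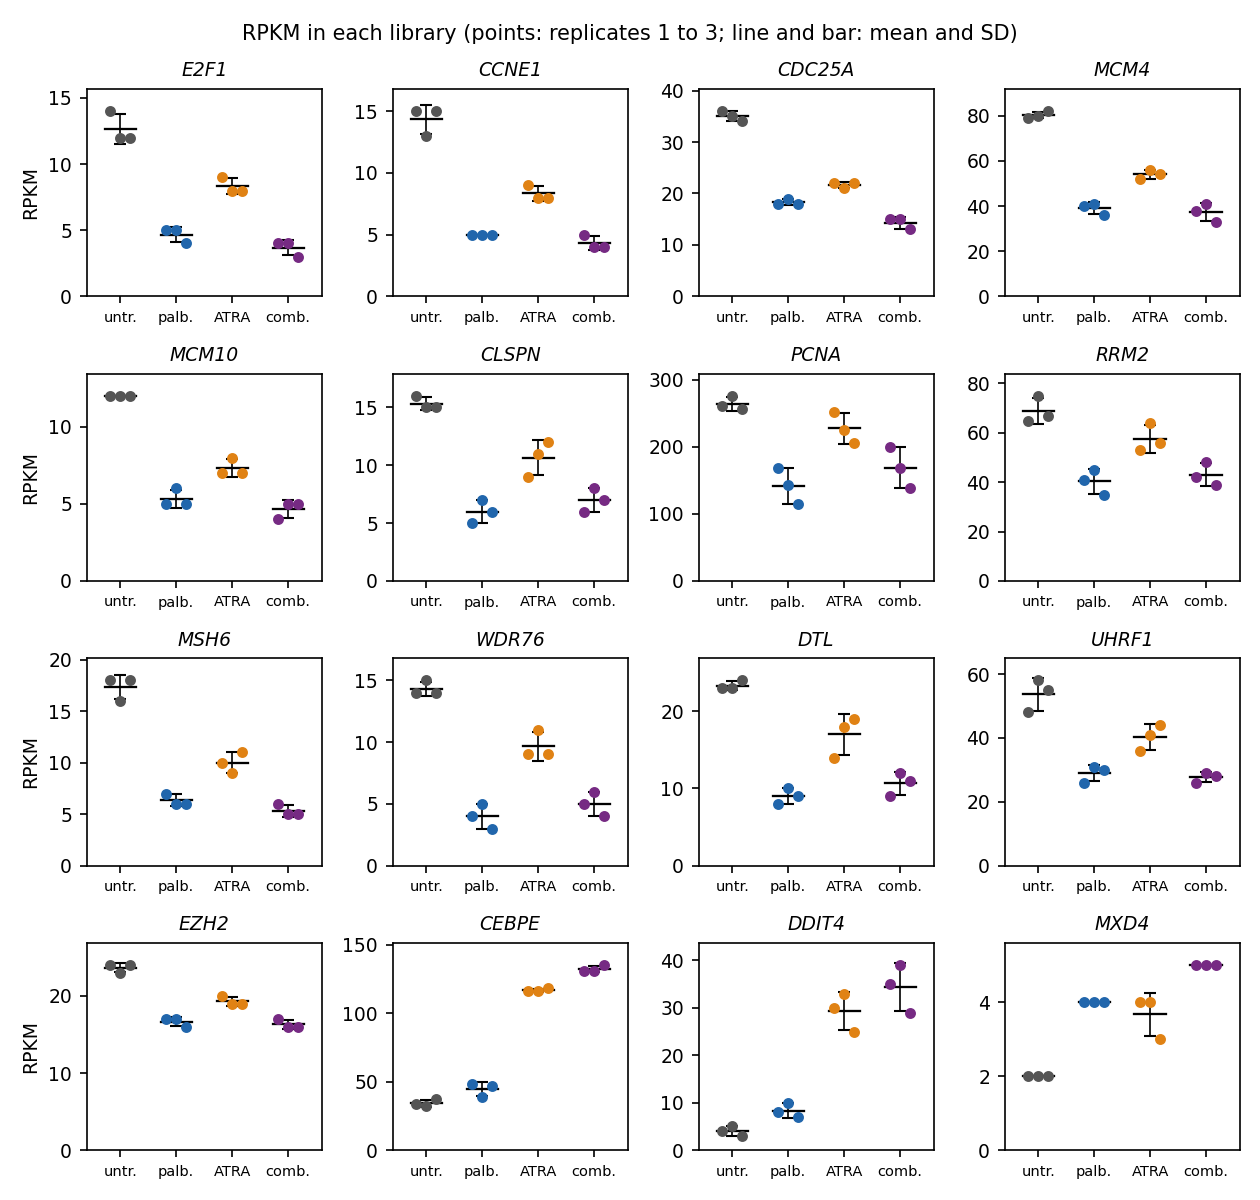
RPKM of 16 genes in each of the 12 libraries, with points for replicates 1 to 3 of untreated, palbociclib, ATRA and combination cells and a line and bar for the mean and SD of 3 libraries. In the 13 genes from E2F1 to EZH2 the 3 palbociclib points lie below the 3 untreated points, and in CEBPE, DDIT4 and MXD4 they lie above.

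Most genes of the machinery that loads and activates the replicative helicase fell. Of 22 origin licensing and helicase genes tested 15 fell and none rose, all 22 changes were below 0, and the median was -0.74. MCM4, a subunit of the MCM2-7 helicase, stood at 79, 80 and 82 RPKM in untreated cells and 40, 41 and 36 RPKM with palbociclib (-1.04 ± 0.08, adjusted p 9.6e-05). The other 5 helicase subunits fell as well, MCM3 by 0.78, MCM6 by 0.70, MCM5 by 0.68, MCM2 by 0.66 and MCM7 by 0.51, so that the subunits of one complex changed to unequal degrees. MCM10, which helps activate the helicase, went from 12 RPKM in all untreated libraries to 5, 6 and 5 RPKM (-1.16 ± 0.11). The licensing factors CDC6, from 27, 29 and 28 RPKM to 14, 16 and 13 RPKM, and CDT1, from 13, 17 and 13 RPKM to 9, 8 and 7 RPKM, fell together with GMNN (-0.86), which encodes the CDT1 inhibitor geminin. ORC1 was the only origin recognition subunit to fall (-0.83 ± 0.10), while ORC2, ORC3 and ORC5 had changes of -0.06, -0.17 and -0.07 and ORC6 (14.7 and 10.3 RPKM) had an adjusted p of 0.074. Of the 15 that fell, GINS1 alone lost its call when a library was left out, namely untreated replicate 1, 2 or 3 or palbociclib replicate 1. Without palbociclib replicate 1 the median of the list was -0.76.

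At the replication fork 21 of 33 genes tested fell and none rose, with all 33 changes below 0 and a median of -0.58. Leaving out palbociclib replicate 1 left 18 that fell. PCNA, the sliding clamp of DNA polymerases and one of the most abundant transcripts of the list, stood at 261, 276 and 256 RPKM in untreated cells and 168, 143 and 114 RPKM with palbociclib. The palbociclib libraries were more scattered than the untreated ones but did not overlap them, and the change was -0.92 ± 0.15 with an adjusted p of 0.0077. CLSPN, which encodes the checkpoint mediator claspin, had the largest change of the list, from 16, 15 and 15 RPKM to 5, 7 and 6 RPKM (-1.35 ± 0.14). The clamp loader subunits RFC2, RFC3, RFC4 and RFC5 fell by 0.62, 0.61, 0.77 and 0.66, whereas RFC1 did not pass (19.7 and 15.3 RPKM, adjusted p 0.086). The polymerase subunits that fell were POLE2 (-1.03), POLD3 (-0.99), PRIM1 (-0.72), POLA2 (-0.58) and POLE (-0.55), and the flap endonuclease gene FEN1 fell by 0.77. Subunits of the same enzymes did not move alike: POLD1, POLD2, POLE3 and POLE4 stood at 23 and 20, 55.3 and 55.0, 82.7 and 75, and 13.7 and 13.7 RPKM, and none of the 4 passed. In the single-stranded DNA-binding trimer RPA1 fell by 0.25, with RPA2 and RPA3 at changes of -0.04 and -0.10. Calls for POLA2, TIMELESS, RPA1 and ATAD5 were lost when some libraries were left out, palbociclib replicate 3 in each case. Those of POLA2, RPA1 and ATAD5 were lost without untreated replicate 2 and palbociclib replicate 1 as well, that of TIMELESS without untreated replicates 2 and 3, those of POLA2 and RPA1 without untreated replicate 3 and that of ATAD5 without untreated replicate 1.

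Fewer genes of deoxynucleotide synthesis passed. Of 14 tested 4 fell and none rose, with a median of -0.29, and 3 fell without palbociclib replicate 1. The ribonucleotide reductase subunits RRM2, from 65, 75 and 67 RPKM to 41, 45 and 35 RPKM, and RRM1, from 71, 76 and 70 RPKM to 49, 54 and 47 RPKM, fell by 0.78 and 0.53. DCK (-0.40) and MTHFD1 (-0.27) fell by less, and each lost its call when 1 of 4 libraries was left out, untreated replicate 2 and palbociclib replicate 3 for both, untreated replicate 1 and palbociclib replicate 1 for DCK, and untreated replicate 3 and palbociclib replicate 2 for MTHFD1. Thymidylate synthase TYMS (86.3 and 59.0 RPKM, -0.56) and TK1 (36.0 and 27.0 RPKM, -0.41) were just outside the threshold.

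Among DNA repair and checkpoint genes 19 of 34 fell and none rose, with a median of -0.50, and 14 fell without palbociclib replicate 1. The mismatch repair gene MSH6 was the most changed, from 18, 16 and 18 RPKM to 7, 6 and 6 RPKM (-1.44 ± 0.10, adjusted p 7.4e-05). PMS2, another mismatch repair gene, did not pass (5.0 and 5.3 RPKM). UNG, the uracil-DNA glycosylase, went from 46, 42 and 45 RPKM to 25, 20 and 16 RPKM (-1.14 ± 0.18). The exonuclease gene EXO1 fell from 17, 17 and 16 RPKM to 8, 9 and 8 RPKM, a change of -0.99. CHEK1 (-0.74), which encodes the replication checkpoint kinase, USP1 (-0.79) and the resection factor RBBP8 (-0.70) fell too, whereas ATR (7.3 and 7.0 RPKM), ATM (4.0 and 4.3 RPKM) and CHEK2 (7.0 and 6.7 RPKM) did not pass. Of the 19, 13 were called with each library left out.

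Chromatin assembly and DNA methylation factors that act behind the fork followed the same direction. Of 17 tested 8 fell, none rose, all 17 changes were below 0 and the median was -0.35, and 7 fell without palbociclib replicate 1. The histone chaperone subunits CHAF1A, from 21, 22 and 20 RPKM to 12, 12 and 11 RPKM, and CHAF1B, from 8 RPKM in all 3 to 4, 4 and 3 RPKM, changed by -0.84 ± 0.06 and -1.12 ± 0.14. UHRF1, which recruits the maintenance methyltransferase to new DNA, went from 48, 58 and 55 RPKM to 26, 31 and 30 RPKM (-0.89 ± 0.10), and the remodeller HELLS from 5, 6 and 5 RPKM to 2, 3 and 2 RPKM. Within the compared libraries CHAF1B and HELLS reached the minimum level only in untreated cells. The methyltransferase DNMT1 itself was at 35.3 and 28 RPKM with an adjusted p of 0.054. Of 7 genes of the Polycomb repressive complex PRC2, EZH2, the catalytic subunit, went from 24, 23 and 24 RPKM to 17, 17 and 16 RPKM (-0.50 ± 0.05, adjusted p 0.00045). SUZ12 (-0.49) and EED (-0.39) also passed, but each lost its call when any library other than palbociclib replicate 2 was left out.

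Of 44 mitotic genes tested, 3 fell (6.82%, against 3.16% of all genes tested) and none rose. Changes below 0 were found in 41 of the 44, and the median was -0.18. Without palbociclib replicate 1 the median was -0.13 and 2 genes fell. The 3 were the kinetochore gene SPC25, from 11, 13 and 12 RPKM to 9, 9 and 8 RPKM (-0.46 ± 0.08), the condensin gene NCAPH (-0.37) and the checkpoint gene BUB3 (-0.23). NCAPH lost its call when any library other than palbociclib replicate 2 was left out, and BUB3 without untreated replicate 1 or 2 or palbociclib replicate 3. Among the abundant regulators of mitosis CDC20 stood at 118.7 and 120.3 RPKM, PLK1 at 38 and 37.7 RPKM, AURKA at 30.7 and 31.3 RPKM and TOP2A at 135.3 and 118.0 RPKM. Under scaling to one median no gene of this list passed and its median was -0.11.

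Several of the 15 largest decreases were in genes outside these lists. WDR76, a WD40 protein linked to ubiquitin ligases and DNA damage, had the largest decrease of all genes tested, from 14, 15 and 14 RPKM to 4, 5 and 3 RPKM (-1.84 ± 0.18, adjusted p 0.00036). DTL, the substrate receptor of the CUL4 ligase that destroys CDT1, went from 23, 23 and 24 RPKM to 8, 10 and 9 RPKM (-1.37 ± 0.13). TCF19 fell from 14, 15 and 15 RPKM to 8, 7 and 6 RPKM, and ZNF367 from 7 RPKM in all 3 to 3 RPKM in all 3. In each of these 4 genes the highest palbociclib value was below the lowest untreated value by more than the spread within either group, and each was called with every library left out. FAM57A (5, 5 and 6 RPKM against 3, 2 and 2 RPKM) was the exception, with an adjusted p of 0.041 that rose above 0.05 when any library other than palbociclib replicate 1 was left out. Within the compared libraries ZNF367 and FAM57A reached the minimum level only in untreated cells.

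The start regions of these genes are shown because binding sites of E2F are the textbook route from CDK4 and CDK6 to S phase genes. The 6 RefSeq promoters printed are those of the genes most lowered at an adjusted p under 0.001 that hold the 8-base E2F motif, meaning TTTCCCGC, TTTCGCGC, TTTGCCGC or TTTGGCGC on either strand. They run 5′ to 3′ on the strand of the gene, from 250 bases before the annotated start through 50 bases from it (GRCh38.p14), with the motif in capitals. They come from MSH6 (chr2:47782895-47783194, + strand), E2F1 (chr20:33686336-33686635, - strand), DTL (chr1:212035498-212035797, + strand), CLSPN (chr1:35769929-35770228, - strand), ZNF367 (chr9:96418321-96418620, - strand) and EXO1 (chr1:241847954-241848253, + strand).
MSH6: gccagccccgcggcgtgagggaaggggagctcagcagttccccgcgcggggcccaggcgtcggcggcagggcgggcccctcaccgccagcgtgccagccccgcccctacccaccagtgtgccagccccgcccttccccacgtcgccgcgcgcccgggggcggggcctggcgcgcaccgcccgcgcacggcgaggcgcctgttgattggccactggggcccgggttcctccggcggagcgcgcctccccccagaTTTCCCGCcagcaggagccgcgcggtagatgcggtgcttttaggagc
E2F1: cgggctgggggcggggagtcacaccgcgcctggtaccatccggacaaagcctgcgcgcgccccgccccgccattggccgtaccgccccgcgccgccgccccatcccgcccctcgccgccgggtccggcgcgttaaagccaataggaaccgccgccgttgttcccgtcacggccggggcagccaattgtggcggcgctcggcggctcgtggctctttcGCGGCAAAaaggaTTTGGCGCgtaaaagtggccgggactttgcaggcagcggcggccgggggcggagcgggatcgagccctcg
DTL: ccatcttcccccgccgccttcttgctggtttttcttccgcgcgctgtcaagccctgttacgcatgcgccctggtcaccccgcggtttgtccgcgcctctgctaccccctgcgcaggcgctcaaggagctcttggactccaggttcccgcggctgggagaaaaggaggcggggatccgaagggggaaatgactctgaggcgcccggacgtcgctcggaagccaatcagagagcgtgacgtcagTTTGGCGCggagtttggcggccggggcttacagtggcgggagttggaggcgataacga
CLSPN: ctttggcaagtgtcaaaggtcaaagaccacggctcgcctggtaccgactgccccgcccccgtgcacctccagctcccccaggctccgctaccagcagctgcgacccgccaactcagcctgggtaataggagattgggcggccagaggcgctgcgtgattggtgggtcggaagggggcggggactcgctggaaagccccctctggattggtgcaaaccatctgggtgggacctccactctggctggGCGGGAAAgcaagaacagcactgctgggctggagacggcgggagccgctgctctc
ZNF367: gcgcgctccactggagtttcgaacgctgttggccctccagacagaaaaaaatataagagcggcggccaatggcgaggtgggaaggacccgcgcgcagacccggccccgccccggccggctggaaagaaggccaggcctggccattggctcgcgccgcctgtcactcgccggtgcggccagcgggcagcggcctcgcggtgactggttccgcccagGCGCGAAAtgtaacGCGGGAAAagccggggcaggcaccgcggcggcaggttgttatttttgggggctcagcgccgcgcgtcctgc
EXO1: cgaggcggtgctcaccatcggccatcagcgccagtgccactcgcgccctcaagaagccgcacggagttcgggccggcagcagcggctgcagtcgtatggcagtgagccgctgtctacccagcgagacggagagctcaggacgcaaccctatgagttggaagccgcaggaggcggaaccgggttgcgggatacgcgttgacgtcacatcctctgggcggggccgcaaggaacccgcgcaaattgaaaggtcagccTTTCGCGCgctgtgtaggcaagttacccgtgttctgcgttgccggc

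These 6 were chosen for holding the motif. CCNE1 and MCM10, with changes of -1.50 and -1.16, had promoters without a match, and WDR76 had no promoter entry. For the 38 genes lower at 0.001, 28 promoters were found and 14 of these held the motif. In all 6 printed promoters the motif lay close to the start. The first base of the match stood 3 bases past the start in MSH6 and 4 bases past it in EXO1, 8 bases before it in DTL and 5 bases before it in CLSPN, while E2F1 held matches at -33 and -20 and ZNF367 at -35 and -21.

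A promoter was found in RefSeq for 203 of the 241 protein-coding genes that fell and for 5414 of the 6486 protein-coding genes tested. The E2F motif was present in 57 of the 203, or 28.1%, in 344 of the 5414, or 6.35%, and in 3.33% of all 27305 promoters. With the first T left off, a 7-base core that includes every 8-base match, the shares were 56.2%, 22.8% and 13.1%. Matches in the genes that fell had their median centre 30.5 bases before the start, against 98 bases before it over all genes tested. Among the genes that rose 3 of 48 promoters held the 8-base motif, but promoters were matched for only 76.2% of the protein-coding genes of that group, too few for a share. These are matches of letters, and no binding was measured.

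**Figure D3:**
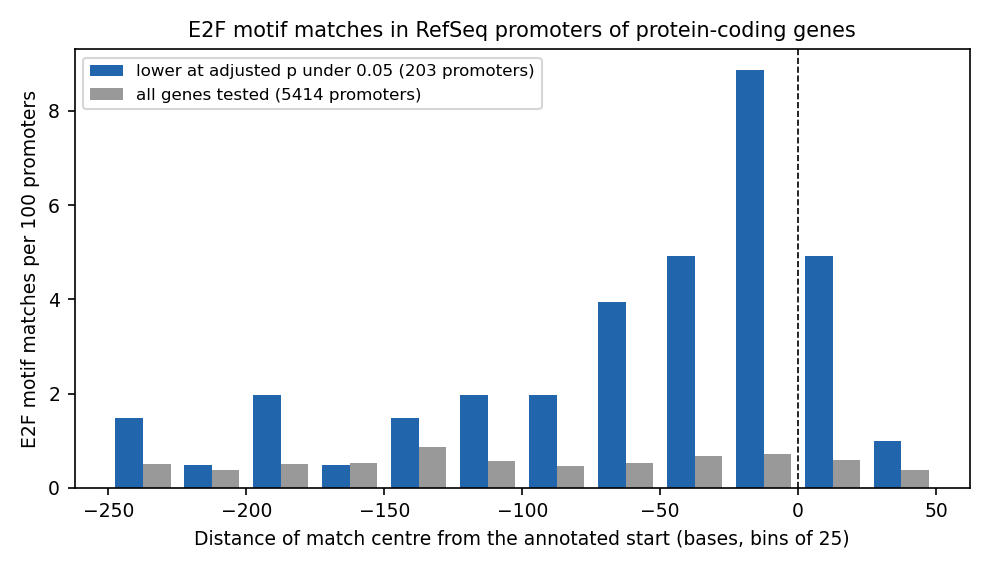
Matches of the 8-base E2F motif per 100 promoters in bins of 25 bases around the annotated start, for the 203 promoters of genes that fell (blue) and the 5414 promoters of all protein-coding genes tested (grey). The blue bars are tallest in the last 25 bases before the start, at 8.87 matches per 100 promoters against 0.72 for all genes tested.

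Promoters of origin and mitotic genes differed in the motifs they held. The E2F motif was in 10 of 19 promoters of origin licensing and helicase genes (52.6%) and in 1 of 37 promoters of mitotic genes (2.7%). The CHR element of MuvB complexes, searched as TTTGAA or TTCGAA on either strand, was in 2 of the 19 (10.5%) and 30 of the 37 (81.1%), against 11.7% of all protein-coding genes tested and 12.3% of those that fell. CCAAT, the letters bound by NF-Y, was in 63.2% and 73.0% of the 2 lists and in 38.9% of all genes tested. A stretch can match both CCAAT and the 7-base E2F core, since both can hold TTGG.

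The genes that rose were fewer, lower in level and less clearly grouped. DDIT4, an inhibitor of mTORC1 signalling that is induced by stress, had the largest increase among the genes that rose, from 4, 5 and 3 RPKM to 8, 10 and 7 RPKM (1.05 ± 0.19, adjusted p 0.012), and its call was lost without untreated replicate 1 or palbociclib replicate 2. MXD4, which encodes a MAX partner that opposes MYC, was the 1 gene higher at 0.001, at 2 RPKM in each untreated library and 4 RPKM in each palbociclib library (0.97 ± 0.11, adjusted p 0.00098). Because these are whole numbers of RPKM, the size of that change is only coarsely known. MXD4 and RNF122 reached the minimum level for testing only through libraries of ATRA-treated cells, as did 9 of the 71 genes that rose and 3 of the 247 that fell. The filter also used the compared values themselves. Within the 6 compared libraries HELLS, CHAF1B, ZNF367 and FAM57A reached the minimum only in untreated cells, where they were higher. DDIT4 and HIST1H2BK reached it in 3 of these 6 only with palbociclib libraries counted. The called genes of this kind were not counted. MYC stood at 185.7 and 182.7 RPKM and MAX at 11 and 12 RPKM, and neither passed. The other large increases were in RNF122 (1 RPKM in each untreated and 2 RPKM in each palbociclib library), PBXIP1 (6, 6 and 5 RPKM to 9, 9 and 10 RPKM), PNRC1, a nuclear receptor coactivator (7, 10 and 8 RPKM to 13, 14 and 13 RPKM), MFSD3, TMEM129 and HIST1H2BK. HIST1H2BK, 1 of only 2 clustered histone genes that reached the minimum level among 66 listed, went from 4, 5 and 4 RPKM to 8, 6 and 7 RPKM (0.68 ± 0.11). AC131009.3 and AC090204.1, long non-coding genes known by clone names, completed the 10 largest increases, and their reads may be shared with overlapping genes. PNRC1, MFSD3 and AC090204.1 lost their calls when any of at least 5 of the 6 libraries was left out, including palbociclib replicate 1 in each case.

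Myeloid genes lay on the higher side with few calls. Of 20 myeloid differentiation genes tested 2 rose and none fell, 19 changes were above 0, and the median was 0.21. Over all 7820 genes tested 0.908% rose, 3752 changes were above 0 and the median was 0.00. CEBPE, a transcription factor of granulocyte maturation, went from 34, 32 and 37 RPKM to 48, 39 and 47 RPKM (0.38 ± 0.08, adjusted p 0.027), and SPI1, which encodes PU.1, from 80, 86 and 85 RPKM to 102, 95 and 93 RPKM (0.21 ± 0.05, adjusted p 0.0499). CEBPE lost its call without untreated replicate 1 or 2 or palbociclib replicate 1 or 3, and SPI1 when any of the 6 libraries was left out. MPO (1345.7 and 1442.0 RPKM), CEBPA (34.7 and 38 RPKM) and CEBPB (7.0 and 9.3 RPKM) did not pass, and without palbociclib replicate 1 no gene of the list passed and its median was 0.14. Of 10 retinoid response genes tested none passed, and 1 had an unadjusted p under 0.05. Over all 7820 genes tested, 790 were lower and 569 higher at that unadjusted level.

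In the integrated stress response and tRNA synthetase list 3 of 29 rose and none fell, with a median of 0.13, where 0.908% of all genes tested rose. They were DDIT4, the cysteinyl-tRNA synthetase gene CARS, from 7, 8 and 7 RPKM to 10 RPKM in all 3 (0.45 ± 0.07), and the methionyl-tRNA synthetase gene MARS (0.21 ± 0.04). CARS alone was called with every library left out, and MARS lost its call when any library other than palbociclib replicate 1 was left out. The regulators ATF4 (219.7 and 254.7 RPKM) and DDIT3 (11 and 13 RPKM) and the target ASNS (28.3 and 32.3 RPKM) did not pass. All 7 antiproliferative genes tested, among them BTG1 (8.0 and 10.0 RPKM), BTG2 and TXNIP (46.0 and 55.3 RPKM), had changes above 0, with a median of 0.25. None of the 7 passed the threshold, and 1, PDCD4, passed without palbociclib replicate 1. An unadjusted p under 0.05 was found for 4 of the 7, where 569 of all 7820 genes tested were higher at that level.

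No gene passed in the lists of immediate early and MAPK feedback genes (11 tested), NF-kB and inflammatory genes (10), interferon-stimulated genes (8), BCL2 family genes (12), ribosome biogenesis (27), glycolysis (19), sterol and fatty acid synthesis (25), lysosome and autophagy (22), chaperones (12), cytosolic ribosomal proteins (80) and oxidative phosphorylation (72), where 23 of the 298 genes had an unadjusted p under 0.05. At that unadjusted level 790 of all 7820 genes tested were lower and 569 higher. Without palbociclib replicate 1, 1 lysosome and autophagy gene of these lists, ATG13, passed, higher. Of 109 solute carriers and 75 ZNF genes 1 each fell, ZNF367 and SLC29A1, a nucleoside transporter whose call was lost when any library other than palbociclib replicate 1 was left out. The apoptosis regulators MCL1 and BCL2 stood at 117.0 and 120.3 RPKM and at 13.0 and 12.3 RPKM. Some small medians moved with palbociclib replicate 1. Of 80 ribosomal protein genes, 78 had changes above 0, with a median of 0.11, which was 0.03 without that library. The median of oxidative phosphorylation genes went from 0.06 to 0.01 and that of sterol and fatty acid synthesis genes from -0.13 to 0.00. With all libraries and a correction for exonic length, these medians were 0.11, 0.06 and -0.10, in the same order. Why the medians moved without palbociclib replicate 1 was not tested.

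**Figure D4:**
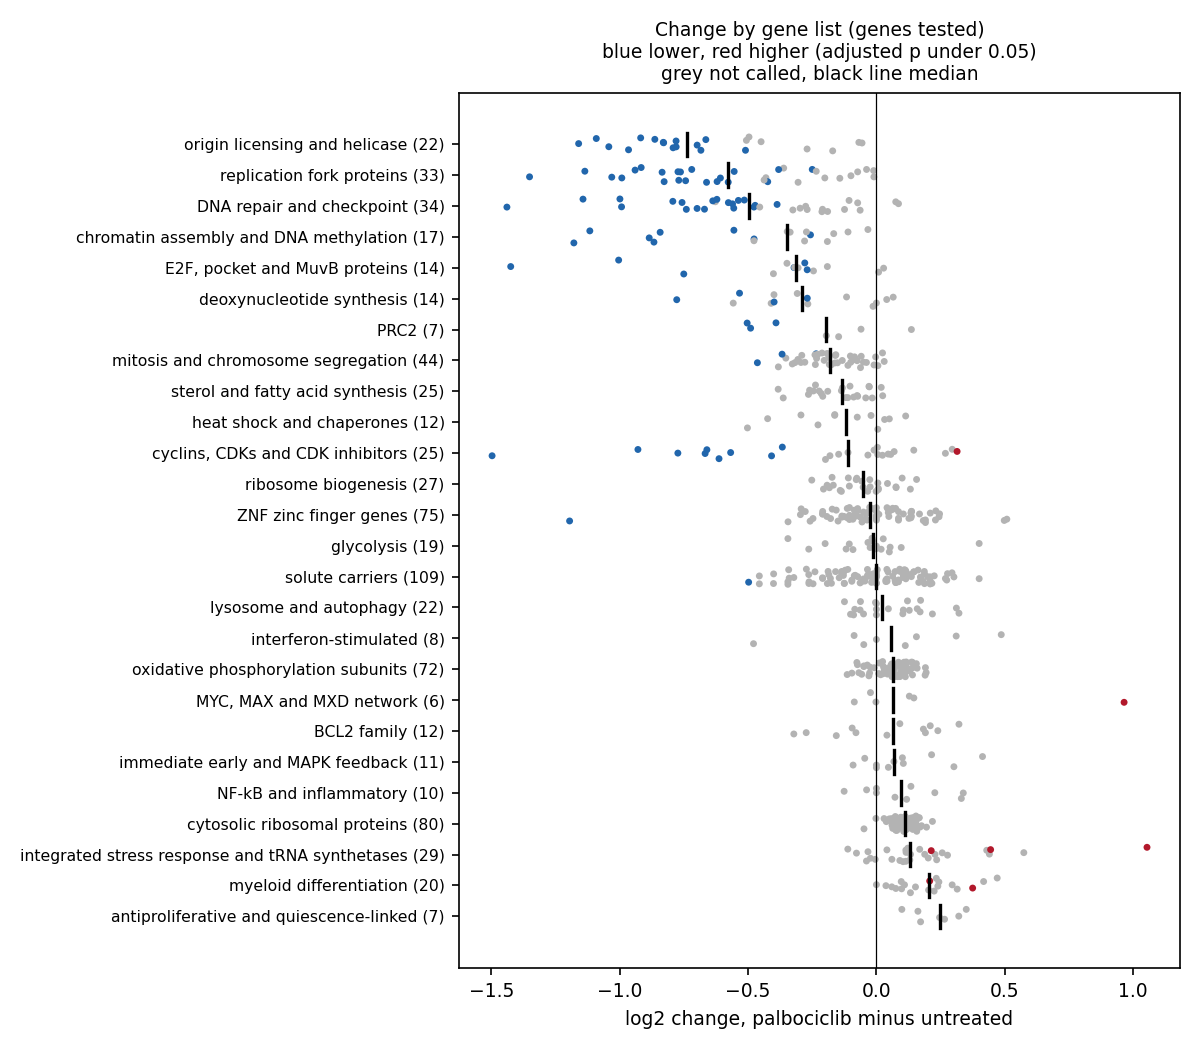
Log2 change with palbociclib for each tested gene of 26 lists, ordered by the list's median (black line), with genes that fell in blue, genes that rose in red and genes not called in grey. Origin licensing and fork genes lie furthest to the left with medians of -0.74 and -0.58, mitotic genes lie near -0.18 with 3 calls, and ribosomal protein and oxidative phosphorylation genes form narrow groups near 0.

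A comparison that shares no library with the first, the combination against ATRA alone, gave the effect of palbociclib in ATRA-treated cells. Nearly all of the genes that fell without ATRA also had lower values there. Of the 247 genes that fell without ATRA, 236 had lower and 11 equal values with the combination than with ATRA, with a median change of -0.23, against 3028 of 7820 genes lower and a median of 0.00 over all genes tested. Of the 71 that rose, 64 were higher, with a median of 0.12, against 3338 of 7820 genes higher over all genes tested. On its own this comparison gave 9 lower genes at 0.05 (0.115% of those tested) and none higher, with no replicate block (limma, with 44 genes higher at an unadjusted p under 0.05). Libraries with the same replicate number were paired in these 2 groups, and with the number as a block 50 genes were lower (0.639%) and 1 higher, of which 46 of the 50 had also fallen without ATRA. The 9 were CCNE1, CDC25A, E2F1, MSH6, UBR7, CHAF1A, MCM4, TMEM201 and MCM3, and all 9 had fallen without ATRA. Without one of the 6 libraries of this comparison, and with no block, between 3 and 7 genes were lower, 6, 4 and 3 without ATRA replicates 1, 2 and 3 and 5, 7 and 3 without combination replicates 1, 2 and 3.

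E2F1 stood at 9, 8 and 8 RPKM with ATRA and 4, 4 and 3 RPKM with the combination, a change of -1.17 ± 0.13 beside -1.42 ± 0.13 without ATRA. CCNE1 stood at 9, 8 and 8 RPKM and 5, 4 and 4 RPKM (-0.93 ± 0.10), and CDC25A at 22, 21 and 22 RPKM and 15, 15 and 13 RPKM (-0.60 ± 0.06). In all 3 genes the ATRA libraries lay between the untreated and the palbociclib libraries, and the combination reached levels close to those of palbociclib alone or below them. The difference between the changes with and without ATRA passed the threshold of 0.05 for none of the 7820 genes, with or without the block (limma). At an unadjusted p under 0.05 the change was more positive with ATRA in 154 genes and more negative in 82. All 247 genes that fell had a smaller decrease with ATRA (median difference 0.28), but they had been selected on the comparison without ATRA, so that count is a description and no test of a weaker effect.

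**Figure D5:**
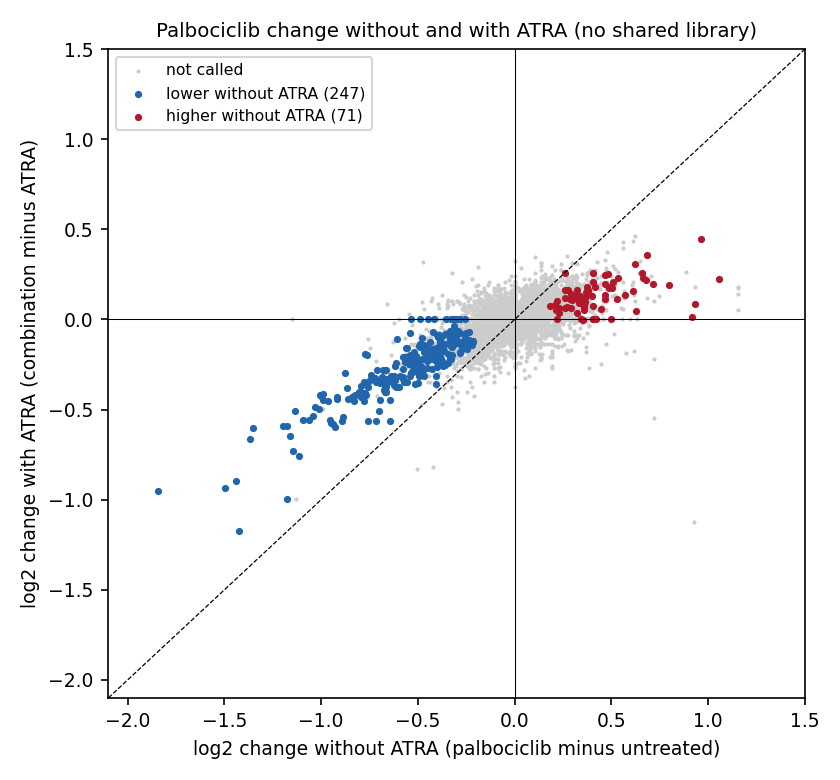
Log2 change with palbociclib in cells without ATRA (horizontal axis) against the change in ATRA-treated cells (vertical axis), with the 247 genes that fell without ATRA in blue, the 71 that rose in red, other genes in grey, and a dashed line of equal change; 2 genes lie outside the plotted range. The blue points lie below or at 0 on the vertical axis and above the dashed line, and WDR76 is furthest to the left at -1.84.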

How the data were processed

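HL-60 cells were treated for 3 h, and poly(A) libraries were sequenced in triplicate for each of 4 conditions. Per the labels and methods, reads were aligned by the authors to hg38 (HISAT2) and counted by gene (HTSeq), with versions not given in the sources used here. The deposited score values are RPKM that the authors rounded to whole numbers. No read counts were used here. The study describes its experiments in general as independent, but its RNA methods and the labels do not tie the library triplicates to separate cultures, so p-values measure the spread between these libraries, which may be technical.

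Genes with at least 5 RPKM in at least 3 of 12 libraries were fitted with limma 3.58.1 (R 4.3.3) on log2(RPKM + 0.1), with 1 mean per group over all 12 libraries, eBayes with a trend and Benjamini-Hochberg adjustment. Fold changes are on that scale and understate the changes of low genes. The members, gene lists and tests were chosen with earlier results of these data known. Lists were written from general knowledge, with ZNF, solute carrier, ribosomal protein, oxidative phosphorylation and histone genes taken by symbol pattern, and they received no test. Some genes counted in the lists are not reported by name here. Named genes are members of the lists, the 15 largest decreases and 10 largest increases at an adjusted p under 0.05 without overlap between groups, and all genes higher at 0.001. The script was tested on simulated data. Annotation came from GENCODE 44 and promoters from RefSeq, matched by symbol or an older symbol and taking the first listed start of each gene.

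Same-numbered libraries of ATRA and combination cells deviated together from their group means (correlations of 0.908, 0.809 and 0.782 across genes), so the block is given beside that comparison. The block was fitted over all 12 libraries, so it also took in the untreated and palbociclib libraries. Alternatives included the pseudocount, the filter, 2 scalings, the fit of the compared groups alone, eBayes settings, the replicate block, each library left out and, chosen after seeing the data, a correction for exonic length.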

Additional observations from a re-analysis of the deposited data

How the results depend on the processing

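Depth is unknown and whole-number values limit what low genes can show. Of the named genes with a call, no change turned in direction under any alternative. Genes lower at 0.05 (247) numbered 147 in a fit of the 6 libraries alone and 101 under scaling to one median, and 141 to 180 with 1 library left out. Genes higher at 0.05 (71) numbered 107 with the filter at 1 RPKM, 36 with the filter at 10 RPKM and 127 with the length correction, and 30 to 45 with 1 library left out. Genes lower at 0.001 (38) numbered 86 with the filter at 1 RPKM, 86 with no filter, 1 in the 6 libraries alone and 13 under scaling to one median, and 0 to 10 with 1 library left out. The 1 gene higher at 0.001 became 29 with the filter at 1 RPKM, 29 with no filter, 3 in the 6 libraries alone, 3 with no variance trend, and 0 under a pseudocount of 0.5 or 1, the filter at 10 RPKM, both scalings, robust eBayes and the length correction, with 0 to 1 when 1 library was left out. Fewer libraries enter the leave-one-out fits and the fit of 6. For the rest the cause was not tested.

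Genes lower in ATRA-treated cells (9) numbered 30 with the filter at 1 RPKM, 30 with no filter, 21 in the libraries of the groups compared alone, 3 under scaling to one median and 5 by the trimmed mean, and 3 to 7 with 1 library left out. Genes higher there (0) numbered 11 with the filter at 1 RPKM, 11 with no filter and 6 in the groups compared alone, and 0 to 0 with 1 library left out. Genes with a difference between the comparisons (0) numbered 90 with the filter at 1 RPKM and 89 with no filter, and 0 to 1 with 1 library left out. The 88 genes lower in the 9 lists numbered 60 under scaling to one median and 61 in the 6 libraries alone, 132 with the replicate block and 133 with the block and the length correction.

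Same-numbered untreated and palbociclib libraries had correlations of 0.0957, 0.351 and 0.145 across genes, so the numbers were not taken as pairs, although every library correlated best with its own number. With the replicate block the main comparison gave 636 lower and 430 higher genes at 0.05 and 78 and 5 at 0.001, and all 247 and 71 were among them. With the block and the length correction together these were 677, 630, 135 and 34. In ATRA-treated cells the block gave 50 lower and 1 higher, and with the length correction 76 and 3.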

Other observations

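Further genes of related function fell beyond the lists of the report, and the groups below were put together after their values were seen. Of 11 SRSF splicing factor genes tested 5 fell and none rose, all 11 changes were below 0 and the median was -0.28, where 3.16% of all genes tested fell. SRSF1, from a mean of 164.7 to 131.3 RPKM, and SRSF7, from 86.3 to 63.3 RPKM, were the most abundant of the 5. SRSF1 and SRSF3 were called with each of the 6 libraries left out, SRSF7 and SRSF10 lost their calls when any but palbociclib replicate 3 was left out and SRSF4 when any of the 6 was. Of 20 nucleoporin genes with NUP symbols 4 fell, NUP50, NUP54, NUP62 and NUP85, and the median was -0.24. NUP54 alone of these 4 was called with each library left out, while NUP62 lost its call without any 1 of the 6, NUP85 without any but palbociclib replicate 1 and NUP50 without palbociclib replicate 1 or 3. In purine synthesis 3 of 11 fell, among them GMPS (24.7 to 17.0 RPKM) and the first-step enzyme PPAT (19.7 to 15 RPKM), but PPAT lost its call without untreated replicate 1, 2 or 3 and PRPS2, the other of the 3, without untreated replicate 1 or 2 or palbociclib replicate 3. Among cohesin and SMC5/6 genes SMC3 (60.3 to 42.0 RPKM) and SMC6 (8.0 to 5.7 RPKM) fell out of 11, and both kept their calls with each library left out. No gene of the 4 groups rose, and all 4 medians were below 0 in ATRA-treated cells as well, at -0.13, -0.10, -0.08 and -0.10. The medians were not taken without palbociclib replicate 1, the library whose longest genes lay lower, so its part in them was not tested. In some uncalled members that library was the lowest, as in NUP160 (20, 27 and 26 RPKM with palbociclib) and SMC1A (19, 26 and 26 RPKM). In others it was not, as in NUP85 (14, 12 and 12 RPKM), which fell.

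SLBP, the histone mRNA stem-loop binding protein, was singled out after its values were seen, at 92, 88 and 88 RPKM in untreated cells and 53, 42 and 44 RPKM with palbociclib (-0.95 ± 0.14, adjusted p 0.0036, limma). HLA-E and LMO2, likewise outside the lists, rose from 82, 78 and 76 RPKM to 99, 94 and 96 RPKM and from 36, 39 and 36 RPKM to 50, 47 and 46 RPKM, and both were called with each of the 6 libraries left out. Of the 71 genes that rose 4 were processed pseudogenes, including RPL12P4 and TPT1P6, and 5 of the 247 that fell were pseudogenes, whose values may share reads with their parent genes.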
